A study of Homo sapiens with 18 samples.

Results

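The genes described here are 10 negative regulators of mitogen-activated protein kinase (MAPK) signaling in U87MG glioblastoma cells. They are the dual-specificity phosphatases DUSP1, DUSP4, DUSP5, DUSP6, DUSP8 and DUSP10, the Sprouty genes SPRY2 and SPRY4, and the Sprouty-related genes SPRED1 and SPRED2. They were taken by name, through their Ensembl identifiers, and all 10 were found among the 58302 genes of the count table. RNA-seq was available for 4 libraries of this human glioblastoma line. Of these, 2 were titled WT (control) and 2 were of cells treated with Erastin at 10 μM for 72 h. Erastin blocks the cystine importer system Xc- and is used to induce ferroptosis, an iron-dependent cell death driven by lipid peroxidation. The control labels name no vehicle, all libraries come from a single cell line, and nothing states that replicates were separate cultures, so the p-values below measure the spread between these libraries.

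MAPK signaling runs from receptor tyrosine kinases through RAS and RAF to the kinase ERK, and in parallel branches from stress signals to the kinases JNK and p38. ERK activity switches on genes that shut the pathway down again. Among these, MAP kinase phosphatases of the DUSP family remove the activating phosphates from ERK, JNK and p38, while Sprouty and SPRED proteins act further upstream, between the receptor and RAF. In glioblastoma, receptor and RAS signaling is commonly overactive, and transcripts such as DUSP6 and SPRY4 are widely read as a record of ERK output.

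Before the genes are described one by one, the totals give the frame. The 4 libraries held 29412656 to 31513519 counts, with 23519 to 23990 genes detected in each, and 16751 genes had enough counts to be tested. A gene was called when its adjusted p was below 0.05 and its log2 fold change was at least 1 in size (edgeR quasi-likelihood test, Benjamini-Hochberg adjustment over all tested genes). The line label was checked against glioma markers, whose summed level was 3190 and 3372 TPM (counts divided by gene length and scaled to the same sum in each library) in control libraries and 1835 and 1929 TPM after Erastin, carried mostly by VIM, CD44 and FN1. Of the 6 glioma markers tested, NES and FN1 were called lower (log2 fold change -3.62 and -3.39). FN1 was at 1037 TPM in control and 113 TPM after Erastin on average. VIM (-0.60) and CD44 (-0.36) were lower by less, and EGFR (0.09) and GFAP (0.79) were not lower. The astrocyte marker GFAP had 46 and 41 counts in control and 69 and 81 after Erastin, S100B had 0 counts in 3 of the 4 libraries, and SOX2 had 0 to 6 counts. The summed level of 14 markers of immune, endothelial, neuronal, oligodendrocyte and epithelial cells was 46.8 and 54.8 TPM in control and 11.2 and 11.6 TPM after Erastin. Among them AIF1, MOG and KRT5 were at 0 in every library and the leukocyte marker PTPRC had 1 count in all. The neuronal gene SNAP25 made up most of the sum in control (38.2 ± 4.14 TPM in control, 4.38 ± 0.869 after Erastin, SD, n = 2) and was called lower (log2 fold change -3.31). The neuronal SYT1 had a log2 fold change of -0.98. Of the endothelial genes, PECAM1 was called lower (-2.34), with 138 and 188 counts in control and 31 and 33 after Erastin. VWF was called higher (2.58) on few counts, 4 and 4 in control and 17 and 32 after Erastin. Both sums were lower after Erastin, as were most of the genes below, and their part in those results was not tested. In bulk RNA, fewer cells expressing a gene and less RNA per cell cannot be told apart.

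All 10 genes passed the filter on low counts. DUSP6 was the only one called, and it was lower after Erastin. That is 1 of 10 called lower beside 9.34% of all tested genes, and 0 of 10 called higher beside 6.24%. Without the fold threshold, 6 of 10 had an adjusted p below 0.05 and were lower (DUSP4, DUSP5, DUSP6, SPRY2, SPRED1 and SPRED2) beside 23.7% of all tested genes, and 2 of 10 were higher (DUSP1 and DUSP10) beside 23.2%. The median log2 fold change of the 10 genes was -0.28, beside -0.00259 for all tested genes. In 7 of 10 genes both Erastin libraries lay below both control libraries, a pattern seen in 36.9% of all tested genes, and in 2 of 10 both lay above, as in 36.7%. Below, rose and fell are used for an adjusted p under 0.05.

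**Figure D1:**
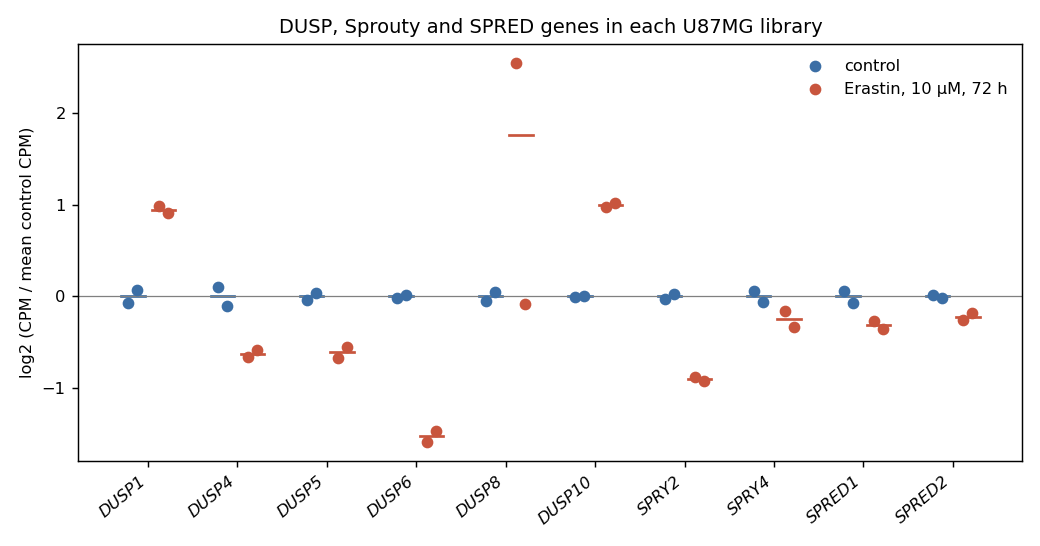
Level of each of the 10 genes in each library, as log2 of its CPM (counts divided by the TMM-adjusted library total) over the mean control CPM, with control in blue, Erastin in red and short lines at the group means. DUSP1 and DUSP10 lie above control in both Erastin libraries, DUSP6 lies furthest below, and the 2 Erastin libraries of DUSP8 are apart (2.37 and 0.382 CPM).

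Sequence upstream of the start sites is shown for 4 of the genes because they differ in a motif known to bind factors at the end of MAPK and cAMP signaling, the cyclic AMP response element (CRE). DUSP1 and DUSP8 hold the full element, DUSP10 and SPRY2 only its core. DUSP10 has 2 promoter windows and SPRY2 has 3, and for each only the window shown holds the core. The windows are from RefSeq on GRCh38.p14, on the minus strand in each case, and each run is the 250 bases before an annotated start site, read 5′ to 3′. Capitals mark the full CRE (TGACGTCA), its core (TGACG, or CGTCA on the other strand), the TATA box (TATAAA) and the E-box (CACGTG). The DUSP1 run is chr5:172771196-172771445, the DUSP8 run chr11:1572272-1572521, the DUSP10 run chr1:221736901-221737150, at the inner of its start sites, and the SPRY2 run chr13:80341127-80341376.
DUSP1: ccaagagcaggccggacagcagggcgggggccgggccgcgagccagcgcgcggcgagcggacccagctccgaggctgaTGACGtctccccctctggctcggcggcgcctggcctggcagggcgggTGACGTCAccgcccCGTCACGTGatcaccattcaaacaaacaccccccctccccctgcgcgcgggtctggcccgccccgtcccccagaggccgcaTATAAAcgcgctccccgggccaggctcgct
DUSP8: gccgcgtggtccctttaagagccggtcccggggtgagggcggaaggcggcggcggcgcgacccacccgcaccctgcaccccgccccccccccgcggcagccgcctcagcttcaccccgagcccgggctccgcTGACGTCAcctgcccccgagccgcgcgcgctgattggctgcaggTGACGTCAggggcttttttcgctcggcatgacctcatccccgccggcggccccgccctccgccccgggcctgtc
DUSP10: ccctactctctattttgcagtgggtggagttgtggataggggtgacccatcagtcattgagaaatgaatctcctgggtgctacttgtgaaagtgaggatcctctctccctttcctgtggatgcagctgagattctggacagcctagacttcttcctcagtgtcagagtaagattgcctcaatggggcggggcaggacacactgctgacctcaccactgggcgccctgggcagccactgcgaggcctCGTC
SPRY2: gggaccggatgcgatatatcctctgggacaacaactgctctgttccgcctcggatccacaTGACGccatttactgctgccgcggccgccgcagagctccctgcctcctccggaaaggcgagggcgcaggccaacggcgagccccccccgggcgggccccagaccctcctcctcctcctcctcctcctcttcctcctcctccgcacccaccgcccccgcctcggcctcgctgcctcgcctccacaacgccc

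In DUSP1 the full CRE begins 125 bases before the start site, and the TATA box begins at -30. A further core lies at -172, and another that begins at -111 overlaps an E-box that begins at -108. DUSP8 carries the full CRE at -118 and again at -74. The core in DUSP10 begins at -4, so that its last letter is the first transcribed base, and the core in SPRY2 lies at -190. Windows of 250 bases before and 50 after the start were listed for 8 of the 10 genes, all but DUSP4 and DUSP5, in 12 windows. The full CRE was in 2 of these 12 windows and in 1.85% of all 35116 windows. The core, which is also part of each full CRE, was in 6 of 12 (DUSP1, DUSP8, DUSP10, SPRED2, SPRY2 and SPRY4) and in 24.6% of all.

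The other motifs were also searched on both strands. The ETS motif CCGGAAG, bound by a family of factors that ERK phosphorylates, was in 0 of 12 windows and 10.3% of all. The CArG box, bound by serum response factor, was in 0 of 12 and 1.29% of all. The AP-1 motif TGANTCA was in 1 of 12 windows, of SPRED2, and in 7.71% of all. The TATA box was in 2 of 12 windows, of DUSP1 and SPRED2, and in 11.5% of all, and the E-box was in 1 of 12, of DUSP1, and in 7.26% of all. The DUSP6 window held none of these motifs. A match is a description of letters and not a bound site. The genes that rose and the genes that fell both included windows with the core.

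DUSP6 (ENSG00000139318, also MKP-3) is the cytoplasmic phosphatase that acts selectively on ERK. It spans chr12:89347232-89353271 on the minus strand of GRCh38. Its counts were 1750 and 1822 in control and 576 and 660 after Erastin. In CPM these were 57.2 and 58.7 against 19.3 and 21.0, so both Erastin libraries lay far below both controls. DUSP6 was 2.88-fold lower after Erastin, a log2 fold change of -1.52 (SE 0.0961, edgeR adjusted p = 1.50e-07). Of all tested genes, 5.99% had a lower log2 fold change. Per gene length, its level was 43.2 ± 2.05 TPM in control and 17.1 ± 0.813 TPM after Erastin (SD, n = 2).

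The DUSP6 level carries a limit of the annotation. An opposite-strand gene, ENSG00000274021, covers 1875 of its 4632 exon bases (40.5%), and since the counting ignored strand, reads on the shared part belonged to both genes and were left out. That gene had 33 and 43 counts in control and 7 and 5 after Erastin. Over the 2757 bases that DUSP6 does not share, its level was 72.6 ± 3.44 TPM in control and 28.8 ± 1.37 TPM after Erastin (SD, n = 2). The fold change uses the same bases in every library and does not depend on this length.

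DUSP5 (ENSG00000138166), the nuclear phosphatase selective for ERK, fell by less. It lies at chr10:110497838-110511544 on the plus strand. Its values were 53.3 and 56.1 CPM in control and 34.4 and 37.3 CPM after Erastin, without overlap. The log2 fold change was -0.61 (SE 0.0894, edgeR adjusted p = 0.000152), or 1.53-fold lower. The closest relative of DUSP6 outside the 10 genes, the ERK phosphatase DUSP7, had 43.2 and 44.1 CPM in control and 32.2 and 30.8 CPM after Erastin, with a log2 fold change of -0.47 (edgeR adjusted p = 0.00131).

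DUSP4 (ENSG00000120875, also MKP-2), a nuclear phosphatase that acts on ERK, JNK and p38, also fell. Its values were 156 and 135 CPM in control and 91.9 and 97.0 CPM after Erastin. The groups did not overlap, although the control libraries differed from each other more than the Erastin libraries did. The log2 fold change was -0.63 (SE 0.0807, edgeR adjusted p = 5.66e-05), close to that of DUSP5, and the level was 69.3 ± 4.86 TPM in control and 51.3 ± 1.24 TPM after Erastin (SD, n = 2).

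DUSP1 (ENSG00000120129, also MKP-1), the nuclear phosphatase that is induced early by stress and growth factors and acts on p38, JNK and ERK, went the other way. It lies at chr5:172768090-172771195 on the minus strand. It had 5098 and 5730 counts in control and 10407 and 10342 after Erastin, or 167 and 184 CPM against 348 and 329 CPM. Both Erastin libraries were well above both controls. The rise was 1.93-fold, a log2 fold change of 0.95 (SE 0.0722, edgeR adjusted p = 7.41e-07), just under the fold threshold, with a 95% interval of 0.79 to 1.11 that includes it. It was 1.01 and past that threshold without control replicate 2. DUSP1 was already the most abundant of the phosphatases in control, at 301 ± 30.5 TPM, higher than 97.9% of tested genes, and reached 661 ± 35.2 TPM after Erastin (SD, n = 2).

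DUSP10 (ENSG00000143507, also MKP-5), which acts on JNK and p38 and little on ERK, rose by a like factor from a much lower level. It lies at chr1:221701424-221742176 on the minus strand. Its values were 17.1 and 17.2 CPM in control and 33.6 and 34.7 CPM after Erastin, without overlap. The rise was 1.99-fold, a log2 fold change of 0.99 (SE 0.106, edgeR adjusted p = 1.22e-05, 95% interval 0.76 to 1.23). Per length, its level went from 20.3 ± 0.709 to 46.2 ± 0.337 TPM (SD, n = 2). It was past the fold threshold at 1.04 when libraries were scaled by their totals alone, and at 1.01 without Erastin replicate 1.

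DUSP8 (ENSG00000184545), a phosphatase of JNK and p38 known from brain, was barely detected and rests on a single library. It lies at chr11:1554044-1571920 on the minus strand. It had 12 and 13 counts in control and 71 and 12 after Erastin, so Erastin replicate 1 alone was high and the count of Erastin replicate 2 equalled the lower control. The log2 fold change was 1.75 (SE 0.744, edgeR adjusted p = 0.0738, 95% interval 0.12 to 3.38). Without Erastin replicate 1 it was -0.087 (edgeR adjusted p = 0.958), and without the low-count filter the same 1.75 came with an adjusted p of 0.00396. When its transcript was split into overlapping words of 31 bases, 96.7% of them had a second copy on an alternate scaffold and 11.4% had one elsewhere on the primary chromosomes, against at most 3.34% for any of the other 9 genes by either measure. Whether that has a part in the DUSP8 counts was not tested.

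**Figure D2:**
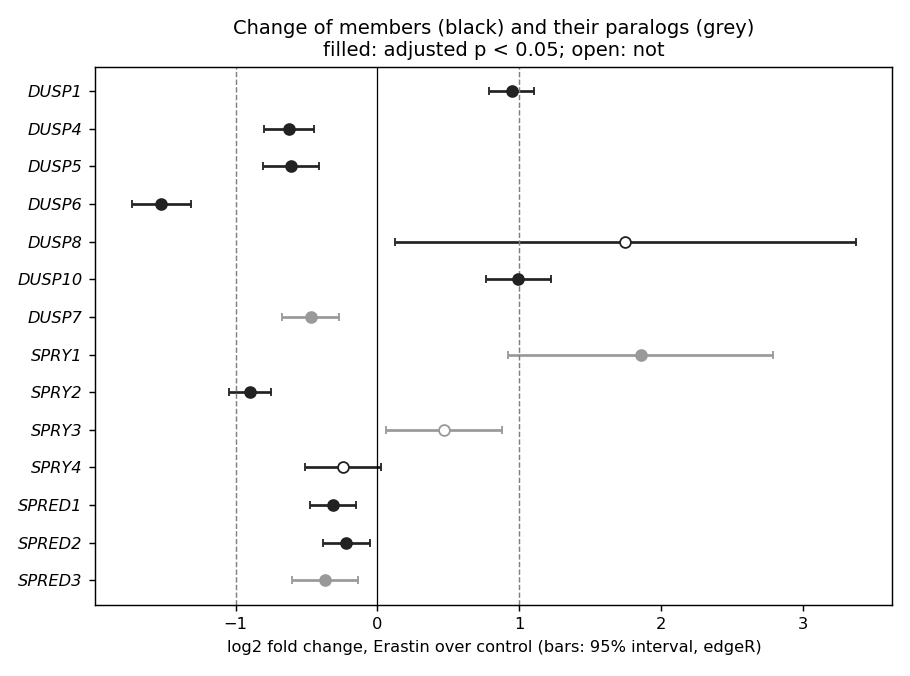
Log2 fold change, Erastin over control, of the 10 genes (black) and of their tested paralogs (grey), with bars for the 95% interval of the edgeR fit, filled points for an adjusted p below 0.05 and dashed lines at the fold threshold. DUSP6 lies beyond the lower line at -1.52, DUSP1 and DUSP10 reach the upper line with their intervals, and the interval of DUSP8 is by far the widest.

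The other MAP kinase phosphatases were at or near 0. DUSP2 had 2 counts in 1 Erastin library and 0 in the others, DUSP9 had 8 counts in 1 control library and 0 in the others, and DUSP16 had 2 counts in 1 control library and 0 in the others. None of these was tested. The counts of MAP kinase phosphatases in these cells therefore came almost wholly from DUSP1, DUSP4, DUSP5, DUSP6, DUSP7 and DUSP10, with few from DUSP8. Whether reads of repeated sequence were lost from DUSP2, DUSP8, DUSP9 or DUSP16 was not tested. Atypical dual-specificity phosphatases are described further below.

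Because the abundant DUSP1 rose while DUSP4, DUSP5, DUSP6 and DUSP7 fell, the make-up of the family shifted. The summed level of the 10 MAP kinase phosphatases was 533 ± 34.1 TPM in control and 853 ± 32.5 TPM after Erastin (SD, n = 2), a 1.60-fold difference. In CPM the sum was 495 ± 1.46 in control and 556 ± 8.01 after Erastin (SD, n = 2), a 1.12-fold difference. DUSP1 took 54.9% and 57.8% of that sum in control and 78.3% and 76.7% after Erastin. From CPM, which is not divided by gene length, its mean share was 35.5% in control and 60.9% after Erastin. DUSP6 took 8.21% and 8.02% in control and 1.89% and 2.13% after Erastin, beside 2.59% and 2.57% for DUSP7 in the same Erastin libraries. Over the unshared bases of DUSP6 that order was reversed, with 28.8 TPM of DUSP6 against 22.0 TPM of DUSP7 on average after Erastin. From CPM the mean share of DUSP6 was 11.7% in control and 3.62% after Erastin. DUSP4 went from 14.3% and 11.8% to 5.75% and 6.28%. DUSP5 went from 13.6% to 6.34% and DUSP7 from 5.02% to 2.58% on average, while DUSP10 went from 3.81% to 5.42%. The libraries of the groups did not overlap for any of these shares, but with 2 libraries against 2 the exact two-sided permutation test can reach no lower than p = 0.333, which is what each gave.

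The same shift can be read as ratios between genes within a library, which cancel library scaling. These ratios were chosen after the values had been seen and carry no test. There were 6.68 and 7.22 TPM of DUSP1 per TPM of DUSP6 in control and 41.5 and 35.9 after Erastin, a 5.57-fold difference of the means. For DUSP10 per DUSP6 the ratios were 0.474 and 0.466 in control and 2.78 and 2.62 after Erastin. DUSP10 was thus below DUSP6 in both control libraries and above it in both Erastin libraries. Over the unshared bases of DUSP6 this held too, with 72.6 TPM of DUSP6 against 20.3 TPM of DUSP10 in control and 28.8 against 46.2 TPM after Erastin.

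**Figure D3:**
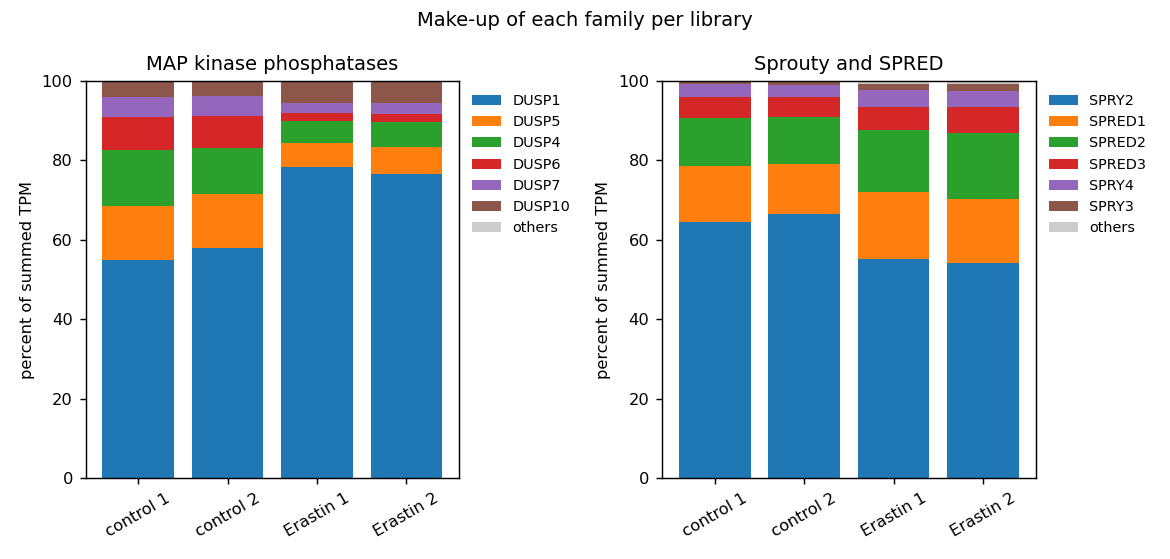
Percent of the summed TPM of each family taken by each gene in each of the 4 libraries, MAP kinase phosphatases on the left and Sprouty and SPRED genes on the right, with genes under 1% in every library pooled as others. DUSP1 grows from 54.9% and 57.8% of the phosphatases to 78.3% and 76.7%, while SPRY2 goes from 64.6% and 66.5% of its family to 55.2% and 54.1%.

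SPRY2 (ENSG00000136158) encodes a Sprouty protein that is recruited to activated receptors and blocks RAS and RAF activation. It lies at chr13:80335976-80340951 on the minus strand. It was the most abundant gene of its family, with 6782 and 7114 counts in control and 3679 and 3731 after Erastin. This was 222 and 229 CPM against 123 and 119 CPM, 2 groups that were tight and far apart. SPRY2 was 1.86-fold lower, a log2 fold change of -0.90 (SE 0.0663, edgeR adjusted p = 5.60e-07), and its level went from 256 ± 13.5 to 157 ± 6.09 TPM (SD, n = 2). In control libraries SPRY2 and DUSP1 were at like levels, with 1.13 and 1.21 TPM of DUSP1 per TPM of SPRY2, and after Erastin the ratio was 4.26 and 4.17.

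SPRY4 (ENSG00000187678), the other Sprouty gene of the set and likewise an ERK-induced inhibitor, did not pass the test. It lies at chr5:142310427-142326455 on the minus strand. It had 666 and 621 counts in control and 561 and 519 after Erastin, lower in both Erastin libraries, and once scaled to CPM (18.8 and 16.5 after Erastin) the gap between the groups was narrower than the range within either. The log2 fold change was -0.24 (SE 0.123, edgeR adjusted p = 0.127), and the 95% interval of -0.51 to 0.03 leaves room for a fall but not for one as large as that of SPRY2. Its antisense partner SPRY4-AS1 had 66 and 96 counts in control and 56 and 71 after Erastin, and shares no exon base with it.

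SPRED1 (ENSG00000166068), which brings the RAS inhibitor neurofibromin to the membrane, fell slightly. It lies at chr15:38252326-38357249 on the plus strand. Its values were 130 and 119 CPM in control and 103 and 96.9 CPM after Erastin, with a log2 fold change of -0.31 (SE 0.0740, edgeR adjusted p = 0.00421). SPRED2 (ENSG00000198369), its close relative at chr2:65310851-65432637 on the minus strand, had 71.4 and 69.3 CPM in control and 58.9 and 61.9 CPM after Erastin. Its log2 fold change was -0.22 (SE 0.0757, edgeR adjusted p = 0.0324), and the adjusted p was 0.0830 with DESeq2 and 0.0894 when libraries were scaled by their totals alone. The adjusted p of SPRED1 was 0.0573 without Erastin replicate 2, and that of SPRED2 was up to 0.205 when a library was left out. Both groups of values were without overlap, and both changes were small beside that of SPRY2.

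For these last genes the scale matters. TPM values of all tested genes rose by a median of 0.186 on the log2 scale after Erastin, while TMM-scaled CPM moved by -0.00436. On the TPM scale SPRED2 was at 47.1 ± 0.425 in control and 46.2 ± 1.01 after Erastin, SPRED1 at 51.9 ± 1.77 and 47.7 ± 2.63, and SPRY4 at 12.2 ± 0.373 and 11.7 ± 1.22 (SD, n = 2 each). The means of all 3 were lower on both scales. Their log2 ratios of mean TPM were -0.03, -0.12 and -0.05, each below the median shift of all genes. In TPM, however, the groups overlapped for SPRED2 (46.8 and 47.4 in control, 45.5 and 46.9 after Erastin). They also overlapped for SPRY4 (12.4 and 11.9 in control, 12.6 and 10.9 after Erastin). For no gene of the 10 did the difference of the means change direction between the scales.

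SPRY1, the paralog of SPRY2, was rare and rose. It had 15 and 21 counts in control and 74 and 56 after Erastin, with a log2 fold change of 1.86 (SE 0.427, edgeR adjusted p = 0.00364), which made it the only paralog called. It was not called when the fold threshold itself was tested with glmTreat. SPRY2 still exceeded it by far, with 590 and 442 TPM of SPRY2 per TPM of SPRY1 in control and 64.9 and 86.9 after Erastin. SPRY3 had 7.29 and 8.92 CPM in control and 9.60 and 12.8 CPM after Erastin, a log2 fold change of 0.47 (edgeR adjusted p = 0.0597). SPRED3 fell, from 34.2 and 33.5 CPM to 24.4 and 27.9 CPM, a log2 fold change of -0.37 (edgeR adjusted p = 0.0133).

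The summed level of the Sprouty and SPRED genes was 391 ± 12.8 TPM in control and 287 ± 7.12 TPM after Erastin (SD, n = 2), a change opposite in direction to that of the phosphatases. SPRY2 took 65.5% ± 1.31 of it in control and 54.6% ± 0.767 after Erastin (SD, n = 2). On average SPRED1 went from 13.3% to 16.6%, SPRED2 from 12.1% to 16.1% and SPRY4 from 3.11% to 4.08%. SPRED1 and SPRED2 kept nearly the same ratio to each other, at 1.14 and 1.07 in control and 1.09 and 0.977 after Erastin. As above, the exact permutation test gave p = 0.333 for each share, the lowest it can give.

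Other genes of the pathway were taken as fixed lists and are described by counts. Of 12 transcripts used as a readout of ERK output, all tested, 4 were called lower and 0 higher, where 9.34% and 6.24% of all tested genes were. At an adjusted p below 0.05, 8 of the 12 were lower and 1 was higher, beside 23.7% and 23.2% of all, and the median log2 fold change was -0.71. The largest falls were in the immediate early factor FOS (103 and 104 CPM in control, 17.2 and 14.4 after Erastin, log2 fold change -2.72), the ETS factor ETV1 (171 and 177 against 49.7 and 51.6 CPM, -1.78) and the receptor EPHA2 (55.6 and 52.7 against 18.3 and 21.3 CPM, -1.45). The fall of DUSP6 was of the same order as that of EPHA2, and the change of SPRY4 was smaller than any of these.

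Of 10 other inhibitors of receptor or RAS signaling, 2 were called lower (9.34% of all tested genes were) and 0 higher (median -0.19). These were IL17RD, known as SEF and a membrane inhibitor of FGF and ERK signaling (13.7 and 15.6 against 7.46 and 6.40 CPM, log2 fold change -1.08), and SOCS3, an inhibitor of cytokine receptor signaling (88.6 and 83.4 against 42.3 and 43.0 CPM, -1.01). At an adjusted p below 0.05, 4 of the 10 were lower, beside 23.7% of all, and 1 was higher, beside 23.2%. Neither call held when the fold threshold itself was tested with glmTreat, and the list had 1 call with scaling by library totals, without control replicate 1 or without control replicate 2.

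The kinases that these genes restrain were taken in a pair of lists. Of 16 genes of the cascade from adaptors and RAS to ERK, 0 were called in either direction. Of all tested genes, 9.34% were called lower and 6.24% higher. At an adjusted p below 0.05, 6 of the 16 were higher and 2 lower, beside 23.2% and 23.7% of all. The median log2 fold change was 0.04. HRAS, 1 of the 16, varied widely within groups, with 908 and 39 counts in control and 287 and 680 after Erastin. Its log2 fold change of 0.02 (SE 0.792) therefore says little about a change. Among 13 genes of the JNK and p38 cascades, the median was -0.12. At an adjusted p below 0.05, 6 of the 13 were lower and 2 higher, beside 23.7% and 23.2% of all tested genes. None was called higher (6.24% of all were), and 3 were called lower (9.34% of all were). These were the p38 kinase kinase MAP2K6 (76 and 83 counts in control, 14 and 4 after Erastin, log2 fold change -3.11), the stress-responsive kinase MAP3K5, also ASK1 (319 and 375 against 120 and 128 counts, -1.48), and MAPK10, the JNK isoform known from neurons (282 and 303 against 124 and 104 counts, -1.35).

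Atypical dual-specificity phosphatases, small relatives that lack the kinase-binding domain of the MAP kinase phosphatases, were a further list. Of 14 listed, 8 were tested, 1 was called higher (6.24% of all tested genes were) and 0 lower, 3 were higher (23.2% of all) and 0 lower at an adjusted p below 0.05, and the median was 0.38. The called gene was DUSP3, also VHR, a small phosphatase reported to act on ERK and JNK. It had 163 and 159 CPM in control and 406 and 424 CPM after Erastin, a log2 fold change of 1.37 (edgeR adjusted p = 1.49e-08).

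**Figure D4:**
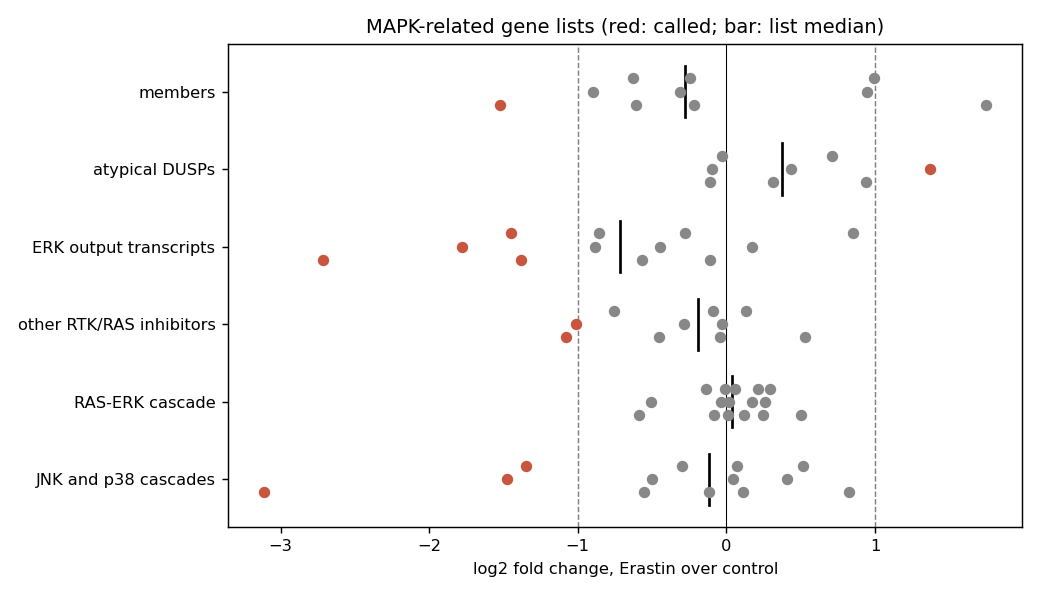
Log2 fold change, Erastin over control, of every tested gene in the 10 genes described here and in 5 related lists, 1 point a gene, red where called, with a bar at the list median and dashed lines at the fold threshold. The transcripts of ERK output have the lowest median (-0.71). The RAS to ERK cascade holds no called gene, where 9.34% of all tested genes were called lower and 6.24% higher.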

How the data were processed

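Total RNA of U87MG cells was sequenced in 4 libraries, 2 of control and 2 of Erastin-treated cells, grouped by their labels. The authors deposited raw counts, whole numbers with no normalization. One library's column, read as estimated counts for its format alone, was also deposited as whole numbers. Per the file header, featureCounts 2.0.3 counted reads on the Ensembl release 90 annotation of GRCh38 without strand, with each read of a pair counted separately and reads on more than 1 gene left out. The submitters' processing notes name HISAT2 2.1.0 and featureCounts 2.0.4. The study's methods name htseq-count in place of featureCounts.

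Gene symbols were joined by Ensembl identifier (57532 of 58302). Genes kept by edgeR's filterByExpr (16751) were tested in R 4.3.3 with edgeR 4.0.16 (TMM, quasi-likelihood test). DESeq2 1.42.0 was an alternative. The common biological coefficient of variation was 10.3%. TPM was computed from the counts and the gene lengths in the file. Replicates differed by more than counting noise alone (chi-square per gene 11.1 in control and 9.10 in Erastin, which the separate counting of paired reads raises), so none was treated as a copy of another, which does not show that they came from separate cultures. No molecular identifiers were used, so PCR copies count as reads and the depth overstates how precise a value is. The test was tried on simulated counts first.

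The genes and lists were chosen with earlier results of these data known. Named were all 10 genes, their closest paralogs, overlapping genes, and in each related list at most the 3 largest called rises and falls. HRAS was named as well, for the spread of its counts. Repeated 31-base words were searched in the transcripts of GENCODE release 44, on the GRCh38 genome. Promoter windows came from RefSeq. Proteins were not compared here, and chromatin data were not used here.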

Additional observations from a re-analysis of the deposited data

How the results depend on the processing

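DUSP6 was called lower under every alternative tried, with a log2 fold change between -1.59 and -1.47, and DUSP1, DUSP4, DUSP5, DUSP10 and SPRY2 kept their direction and an adjusted p below 0.05 in the 11 alternatives that tested for any change. In the test against the fold threshold itself (glmTreat) their adjusted p was 1 and that of DUSP6 was 0.000412. The number of the 10 genes called higher, 0 as reported, was 1 with scaling by library totals (DUSP10, 1.04), 1 without the low-count filter and 1 with at least 10 counts in every library, the last being DUSP8 in both (1.75, adjusted p = 0.00396, and 1.74, adjusted p = 0.0491), and 1 to 2 when a library was left out. Leaving out control replicate 2 put DUSP1 (1.01) past the threshold, and leaving out Erastin replicate 1 did so for DUSP10 (1.01). DUSP8 was called without control replicate 1 (1.70), control replicate 2 (1.79) or Erastin replicate 2 (2.54). DUSP8 ranged from -0.087 to 2.54 when a library was left out, the reversal coming without Erastin replicate 1. SPRED2 lost its adjusted p with library totals (-0.17), with DESeq2 (-0.22) and in each leave-one-out fit in which it was weaker (-0.26 to -0.18). SPRED1 lost its own without Erastin replicate 2 (adjusted p = 0.0573), over a range of -0.39 to -0.25. Genes called numbered 377 higher and 748 lower with glmTreat, against 1046 and 1564, and 895 to 1066 higher and 1446 to 1526 lower without a library. With glmTreat, 0 Sprouty paralogs were called higher and 0 of the other receptor inhibitors lower. The latter count was 1 with library totals and 1 to 2 without a library. Atypical phosphatases called higher numbered 1 to 2 without a library (2 without either control replicate), ERK output transcripts 0 to 1 (1 without Erastin replicate 2) and ERK cascade genes 0 to 1 (1 without control replicate 1). By CPM, with no gene length, DUSP1 took 35.5% and 60.9% of its family in control and Erastin, DUSP6 11.7% and 3.62%, and SPRY2 46.6% and 35.7% of its own. With the DUSP6 length cut to its unshared bases, an alternative chosen after seeing the data, DUSP1 took 53.4% in control and DUSP6 12.9% and 3.33%. The causes of these differences were not tested. With the replicate block, DUSP6 was -1.53 (adjusted p = 2.76e-10) and no call among the 10 genes changed. Deviations of same-numbered replicates correlated at 0.0203, so the numbers were not taken as a pairing. DUSP8 was not tested when counts were halved to pairs. Without the filter and without either control library the p-values rest on a spread pooled across all genes, and a lone library was assumed to vary like the other group.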
